A study of Mus musculus with 6 samples.

Results

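Notch signalling was examined through 10 genes, of the 20654 in the count table, in muscle satellite cells (MuSCs) cultured with and without a deletion of *Piezo1*. The genes were chosen by name for their role in the pathway: the receptors *Notch1*, *Notch2* and *Notch3*, the ligands *Dll1*, *Jag1* and *Jag2*, the nuclear effector *Rbpj* and the target genes *Hes1*, *Hey1* and *Heyl*. The 6 libraries came from C57BL/6-background mice, 3 labelled wild type and 3 labelled *Piezo1* cKO. In the paper's nomenclature the controls are *Piezo1*+/+; *Pax7*CreERT2/+, so both groups carried the tamoxifen-inducible Cre, which is expressed only where *Pax7* is active, and the cKO group also had the floxed *Piezo1* alleles. The mice received tamoxifen, limb muscle cells positive for VCAM1 and negative for SCA1, CD45 and CD31 were sorted, and both cultures were kept in growth medium with 1 µM 4-OH TMX until day 3. No age is given in the labels for these mice, and the replicates are described only as 3 samples per group, so the p-values measure the spread between these samples.

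Notch receptors are cleaved when a ligand on a neighbouring cell binds them, and the released intracellular domain joins RBPJ on DNA and switches on target genes, mainly repressors of the HES and HEY families. In resting muscle, this pathway is known to hold MuSCs in quiescence and to restrain myogenic differentiation. *Hey1* and *Heyl* are known as its targets in MuSCs, and *Dll1* as a ligand made by activated and differentiating myogenic cells.

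Transcripts were counted by unique molecular identifiers (UMIs), tags that mark each cDNA molecule before PCR. Total counts were 740936, 931168 and 891531 in the wild type libraries 1 to 3, and 810096, 726378 and 769295 in the *Piezo1* cKO libraries 1 to 3. Levels are given as CPM, counts scaled to a common library total with TMM normalisation, where a single count stands for 1.12 to 1.44 CPM depending on the library. *Piezo1* itself had 11, 5 and 6 counts in wild type and 7, 12 and 9 in *Piezo1* cKO, a pooled ratio of 1.35 (95% counting interval 0.74 to 2.47), so a reduction was not seen in these counts. Counts come mostly from 3′ ends because cDNA was primed with oligo-dT, and a 3′ end outside the deleted part would check nothing. Whether that part is deleted is not given in the sources used here, and the 3′ end of *Piezo1* overlaps *Ctu2* on the opposite strand. Directions below are those between the libraries as labelled.

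All 8 muscle-progenitor markers had counts in the libraries. *Chrna1*, a subunit of the muscle acetylcholine receptor, was the most abundant of them, at 917 to 1443 counts, and *Pax7*, which marks MuSCs, had 10, 26 and 19 counts in wild type and 16, 5 and 12 in *Piezo1* cKO. For *Pax7*, the log2 fold change was -0.64 (SE 0.36, edgeR adjusted p = 0.481). It passed the filter on low counts, given below, through the wild type group, with 3 libraries at the minimum against 2 of *Piezo1* cKO. The progenitor markers went both ways, as in *Cdh15* and *Vcam1*, which are named here after their values were seen. *Cdh15* was higher in every *Piezo1* cKO library (0.53, SE 0.16, edgeR adjusted p = 0.118). *Vcam1* was lower in every one (-0.45, SE 0.16, edgeR adjusted p = 0.185). Markers of other cell types that a muscle digest could hold were also counted. The 7 endothelial markers in the table summed to 7 to 16 counts per library and *Tie1* among them was at 0 throughout, while the 5 mural markers summed to 28 to 63 counts. Fibro-adipogenic markers were present, at 190 to 370 summed counts per library. Most of these counts were from *Col3a1* and from *Cd34*, which is also a gene of quiescent MuSCs. The other genes of that list had few counts and are given below. For *Notch3* and *Heyl*, which mural cells also express, the mural values are given again below.

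Of the 10 genes, 5 passed the filter on low counts and were tested with edgeR's quasi-likelihood test on all 8551 genes that passed it. None of the 5 was called at an adjusted p under 0.05, beside 0.784% of all genes tested (40 or 0.468% higher and 27 or 0.316% lower in *Piezo1* cKO). Among them, *Hey1* was at an unadjusted p under 0.05, beside 11.9% of all genes tested, and DESeq2 called none of the 3 to which it gave an adjusted p, beside 0.674% of all genes with one. Judged by the libraries alone, 3 of the 10 genes were higher in every *Piezo1* cKO library than in any wild type library (*Notch2*, *Hey1* and *Heyl*), and none was lower in every one. Over all 19247 genes with a count, 6.13% were higher without overlap and 4.9% lower. The 10 genes were chosen with earlier results of these data known, so setting them beside these shares is a description only.

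**Figure D1:**
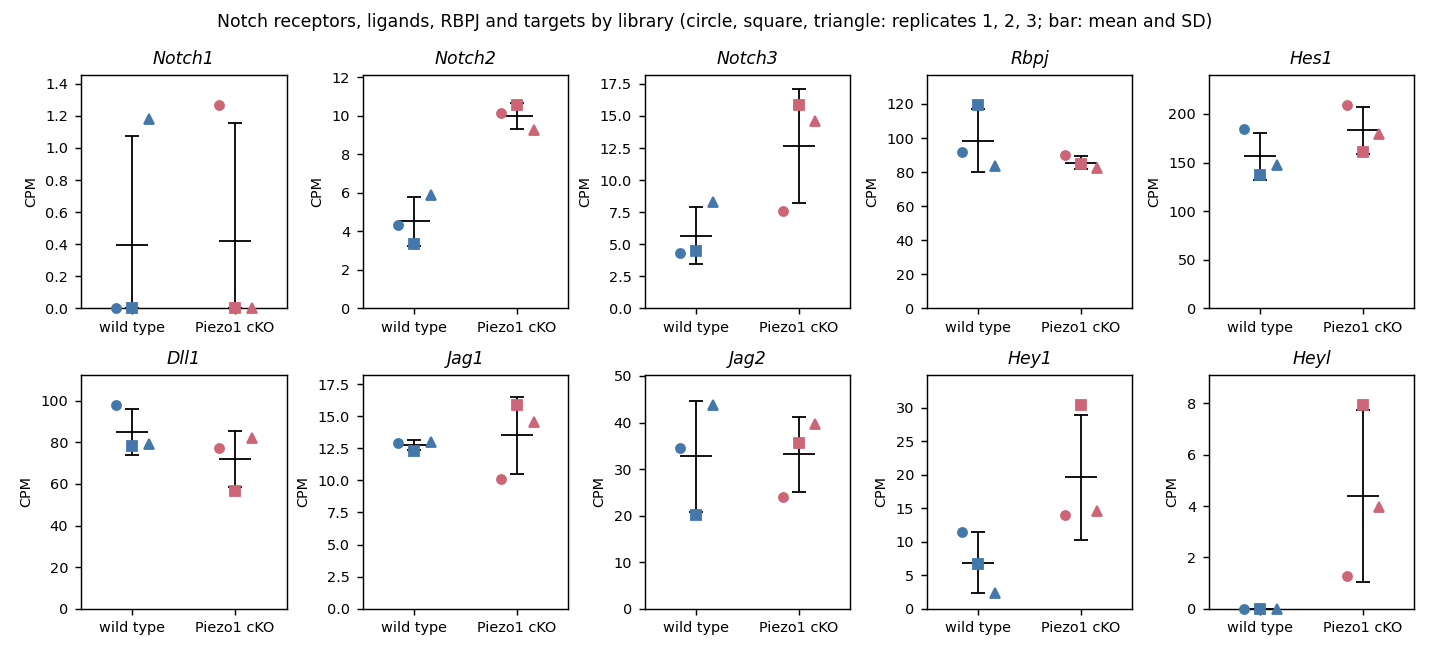
CPM of the 10 Notch pathway genes in each library (y axis, linear, from 0), with wild type in blue and *Piezo1* cKO in red. Symbols are replicates 1, 2 and 3, and the bars show the mean and SD (n = 3, lower arm stopped at 0). *Notch2*, *Hey1* and *Heyl* are the panels in which the 2 groups do not overlap.

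Promoter sequences were available in the RefSeq table (GRCm38.p6) for 7 of the 10 genes, as 9 windows from 250 bases before to 50 bases after a transcript start. *Hes1*, *Hey1* and *Heyl* had no entry. The windows were searched on both strands for TGGGAA, the core that RBPJ binds, for the E box CACGTG that HEY proteins bind, and for the class C box CACGCG and the N box CACGAG that HES proteins bind. The 3 sequences below are the parts of their windows ahead of any annotated exon in the window. They belong to *Notch2* and *Notch3*, which had more pooled counts in *Piezo1* cKO, and to *Rbpj*, the gene for the factor that reads TGGGAA. The *Rbpj* sequence lies inside that gene, which is annotated from chr5:53466152. Each sequence is written 5′ to 3′ on the strand of its gene, with the matches in capitals. They cover chr3:98013288-98013526 on the plus strand for *Notch2*, chr17:32166891-32167140 on the minus strand for *Notch3* and chr5:53590096-53590213 on the plus strand for *Rbpj*.
Notch2: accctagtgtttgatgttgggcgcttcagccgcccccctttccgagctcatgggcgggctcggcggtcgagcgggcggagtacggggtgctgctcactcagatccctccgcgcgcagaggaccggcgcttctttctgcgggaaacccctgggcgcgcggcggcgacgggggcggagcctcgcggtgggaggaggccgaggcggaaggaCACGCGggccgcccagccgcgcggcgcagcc
Notch3: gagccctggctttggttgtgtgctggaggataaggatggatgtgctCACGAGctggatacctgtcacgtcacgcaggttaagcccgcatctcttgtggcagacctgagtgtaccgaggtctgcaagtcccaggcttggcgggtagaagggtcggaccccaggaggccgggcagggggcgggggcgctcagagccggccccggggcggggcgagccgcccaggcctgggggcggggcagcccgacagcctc
Rbpj: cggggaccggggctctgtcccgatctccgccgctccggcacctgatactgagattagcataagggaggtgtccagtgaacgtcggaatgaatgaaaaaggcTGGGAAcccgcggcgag

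TGGGAA was found in 2 of the 9 windows, both of them overlapping *Rbpj* windows, and in 25.6% of all 32851 promoter windows of the table. CACGCG was in 4 of the 9 (*Notch2*, *Jag1*, *Jag2* and *Dll1*) and in 9.27% of all windows, and CACGAG was in the *Notch3* window alone and in 6.47% of all. CACGTG was in none of the 9 and in 7.15% of all windows. These matches describe the letters of the windows.

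The receptors were the least abundant group. *Notch2* (chr3:98013527-98150361, plus strand) had 3, 3 and 5 counts in wild type and 8, 8 and 7 in *Piezo1* cKO, and *Notch3* (chr17:32120820-32166852, minus strand) had 3, 4 and 7 against 6, 12 and 11. The *Piezo1* cKO libraries were all higher for *Notch2*, whereas for *Notch3* the lowest *Piezo1* cKO library (7.60 CPM) lay below the highest wild type library (8.27 CPM). *Notch2* was at 4.52 ± 1.29 CPM in wild type and 9.99 ± 0.66 CPM in *Piezo1* cKO (SD, n = 3), and *Notch3* at 5.68 ± 2.24 and 12.7 ± 4.44 CPM. The two-sided exact permutation test on CPM gave p = 0.1 for *Notch2*, the smallest value that 3 libraries against 3 allow, and p = 0.2 for *Notch3*.

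Pooled over libraries, *Notch2* had 11 counts in wild type and 23 in *Piezo1* cKO, a ratio per normalised total of 2.22 with a 95% interval of 1.04 to 5.04. For *Notch3* the pooled counts were 14 and 29, a ratio of 2.20 (1.12 to 4.50). These intervals cover counting error only and not the spread between libraries. Neither receptor passed the filter on low counts. In the edgeR fit without that filter, *Notch2* had an adjusted p of 0.666 and *Notch3* of 0.555.

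*Notch1* (chr2:26457903-26516663, minus strand), the receptor best known in MuSCs, had 1 count in wild type library 3, 1 in *Piezo1* cKO library 1 and 0 in the other 4 libraries. At this depth no difference could be detected. Its 3′ end, where oligo-dT priming places most counts, overlaps *0610009E02Rik* on the opposite strand by 1488 bases, and the 3′ end of *Notch3* lies inside the antisense gene *Gm17276*. Whether the counting used strand is not given in the sources used here, so reads of such partners cannot be told apart, and the level of *Notch1* is uncertain for this reason.

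Among the ligands, no difference between the groups passed the test. *Dll1* (chr17:15367354-15376872, minus strand) had 68, 70 and 67 counts in wild type and 61, 43 and 62 in *Piezo1* cKO, or 85.0 ± 11.1 and 72.1 ± 13.5 CPM. *Piezo1* cKO library 2 was the lowest, and the groups overlapped after normalisation, with a log2 fold change of -0.23 (SE 0.19, 95% interval -0.60 to 0.15, edgeR adjusted p = 0.688).

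*Jag2* (chr12:112907819-112929776, minus strand), of the Jagged class of ligands, had 24, 18 and 37 counts in wild type and 19, 27 and 30 in *Piezo1* cKO. Its highest and its lowest library were both wild type. The log2 fold change was 0.02 (SE 0.28, 95% interval -0.53 to 0.58, edgeR adjusted p = 0.984), and it was -0.25 without wild type library 2. *Jag1* (chr2:137081456-137116644, minus strand), of the same class, had 9, 11 and 11 counts against 8, 12 and 11 and did not pass the filter. Its pooled counts were 31 in each group, with a ratio of 1.06 (95% counting interval 0.62 to 1.80).

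*Rbpj* (chr5:53466152-53657362, plus strand), the DNA-binding partner of every Notch intracellular domain, had 64, 107 and 71 counts in wild type and 71, 64 and 62 in *Piezo1* cKO. Wild type library 2 stood above the rest at 119 CPM, while the other 5 libraries lay between 82.2 and 92.0 CPM. The log2 fold change was -0.21 (SE 0.18, 95% interval -0.56 to 0.14, edgeR adjusted p = 0.698), and without wild type library 2 it was -0.03. The pseudogene *Rbpj-ps3* had 9 counts over all libraries, and reads shared between such copies cannot be placed with certainty.

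*Hes1* (chr16:30064384-30067796, plus strand), a repressor of the HES family that many pathways besides Notch can induce, was the most abundant of the 10 genes. It had 128, 123 and 125 counts in wild type and 165, 122 and 135 in *Piezo1* cKO, or 156 ± 24.6 and 183 ± 24.3 CPM. Wild type library 1, at 184 CPM, lay above 2 of the *Piezo1* cKO libraries, and the log2 fold change was 0.24 (SE 0.15, 95% interval -0.06 to 0.53, edgeR adjusted p = 0.547).

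*Hey1* (chr3:8663359-8667256, minus strand), a HEY family repressor and the target with the widest difference among the 5 tested genes, had 8, 6 and 2 counts in wild type and 11, 23 and 11 in *Piezo1* cKO. The corresponding levels were 11.5, 6.69 and 2.36 CPM against 13.9, 30.4 and 14.6 CPM, so that all *Piezo1* cKO libraries were higher, with library 2 well above the others. Means were 6.85 ± 4.57 and 19.6 ± 9.31 CPM (SD, n = 3). The log2 fold change was 1.55 (SE 0.45, 95% interval 0.65 to 2.44), with an edgeR unadjusted p of 9.2e-04 and an adjusted p of 0.0817, which did not pass the threshold of 0.05. *Hey1* passed the filter on low counts through the *Piezo1* cKO group alone: all 3 *Piezo1* cKO libraries and none of the wild type libraries reached its minimum, so the filter selected on the difference that was tested. In the fit without the filter the adjusted p was 0.0649. At an adjusted p under 0.1, 0.889% of all genes tested were higher, *Hey1* among them.

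The call of *Hey1* depended on single libraries. Its adjusted p in edgeR was 0.0391 without wild type library 1 and 0.0268 without *Piezo1* cKO library 1, which passed, and 0.659 without *Piezo1* cKO library 2. The log2 fold change lay between 1.09 and 2.06 over the 6 fits that each left out a library. DESeq2 gave *Hey1* no adjusted p and an unadjusted p of 0.0207.

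**Figure D2:**
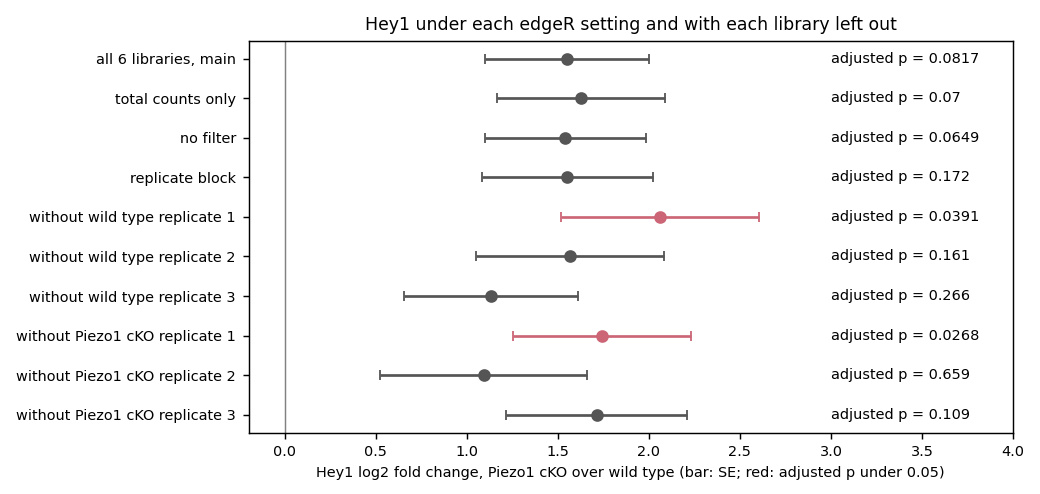
Log2 fold change of *Hey1*, *Piezo1* cKO over wild type (x axis), under 4 edgeR settings with all 6 libraries and with each library left out (y axis). Points are estimates, bars are 1 SE and red marks an adjusted p under 0.05, which was reached without wild type library 1 and without *Piezo1* cKO library 1.

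*Heyl* (chr4:123233556-123249875, plus strand), the third target, had no count in any wild type library and 1, 6 and 3 counts in *Piezo1* cKO. Over the pooled counts of 0 and 10, the 95% interval of the ratio, for counting error only, began at 2.38. *Piezo1* cKO library 2 held 6 of the 10 counts. Without it, the *Piezo1* cKO mean went from 4.39 to 2.62 CPM. The count in library 1 is a single molecule, so the absence of overlap rests on it. *Heyl* did not pass the filter, and in the edgeR fit without the filter its unadjusted p was 0.0016 and its adjusted p 0.137.

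Genes of mural cells, which express *Notch3* and *Heyl*, were examined beside these values. The 5 mural markers in the table summed to 44.6, 31.2 and 43.7 CPM in wild type and 54.5, 58.1 and 83.5 CPM in *Piezo1* cKO. This sum was higher in every *Piezo1* cKO library. *Cspg4*, the proteoglycan NG2, made up most of this sum, with 28, 25 and 25 counts against 39, 32 and 54 (log2 fold change 0.76, SE 0.25, edgeR adjusted p = 0.143). *Rgs5*, a regulator of G protein signalling in pericytes, had 0, 0 and 1 counts against 2, 4 and 6, and *Pdgfrb* had 3, 3 and 10 against 2, 7 and 3. *Myh11* and *Abcc9*, the remaining markers, had at most 1 count in any library. Among these markers, *Cspg4* and *Rgs5* were higher in every *Piezo1* cKO library, and the groups overlapped in *Pdgfrb*, *Myh11* and *Abcc9*. The part of mural cells in the *Notch3* and *Heyl* values was not tested, and in these bulk libraries more cells of a type and more RNA per cell cannot be told apart.

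Levels were compared between the genes per length, here as CPM per kb of the longest annotated transcript (GENCODE M21), although oligo-dT priming need not give longer transcripts more counts. By the median over the 6 libraries, *Hes1* led at 116 CPM per kb, and its lowest library (93.5) lay above every library of every other gene. *Dll1* (21.9) and *Rbpj* (15.9) followed, and their ranges overlapped. In CPM, without the division by length, *Rbpj* lay above *Dll1*, with means over the 6 libraries of 92.0 and 78.5. *Jag2* (6.87), *Hey1* (5.25) and *Jag1* (2.31) came next, and neighbours in this order overlapped too. *Hey1* lay below *Jag2* in wild type (2.83 ± 1.89 against 6.42 ± 2.33 CPM per kb) and above it in *Piezo1* cKO (8.10 ± 3.84 against 6.50 ± 1.59), and their libraries overlapped in both groups. In CPM *Hey1* lay below *Jag2* in both groups, at 6.85 against 32.8 in wild type and 19.6 against 33.2 in *Piezo1* cKO. Their order in *Piezo1* cKO therefore turned on the division by length. *Notch3* (0.99), *Notch2* (0.72), *Heyl* (0.14) and *Notch1* (0) were the lowest.

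*Hey1* and *Hes1* were the 2 tested members with the largest changes in the main edgeR fit. In DESeq2 the change of *Dll1* (-0.25) was larger than that of *Hes1* (0.22). The likeness of other genes to *Hey1* and *Hes1* was measured as the root mean square difference between centred log2 CPM over the 6 libraries. For *Hey1* the 3 closest of the tested genes were *Aqp5* (a water channel, 0.37), *Porcn* (an enzyme that acylates WNT proteins, 0.41) and *Mycl* (a MYC family transcription factor, 0.42). *Aqp5* rose by 1.69 on the log2 scale (SE 0.36, edgeR adjusted p = 0.0059) and *Mycl* by 1.19 (SE 0.31, adjusted p = 0.0294). Both were chosen for a profile close to that of *Hey1*, so a higher level in *Piezo1* cKO follows from the choice. Like *Hey1*, *Aqp5* and *Porcn* passed the filter through the *Piezo1* cKO group, with 1 and 0 wild type libraries at the minimum. Without *Piezo1* cKO library 2 neither *Aqp5* nor *Mycl* was called (edgeR adjusted p = 0.419 and 0.588), and *Mycl* was also not called without wild type library 2 (0.0997) or 3 (0.0609). For *Hes1* the closest genes were *Smarcc2* (a subunit of a chromatin remodelling complex, 0.057), *Hdac6* (a deacetylase, 0.058) and *Maged1* (0.061), none of which was called. These likenesses rest on 6 libraries that also share a grouping and a depth, and they are a description.

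A wider list of 80 other genes of the pathway was then followed. Of these, 74 were in the table and 47 passed the filter. None was called by edgeR or DESeq2, beside 0.784% and 0.674% of all genes, 4 were at an unadjusted edgeR p under 0.05 (1 higher and 3 lower, beside 11.9% of all genes tested), and the median log2 fold change was 0.06, beside 0.00 over all genes tested. Without overlap, 3 of the 47 were higher and 3 lower in *Piezo1* cKO, beside 8.2% and 8.31% of all genes tested, and 2 of the 3 higher genes had passed the filter through the *Piezo1* cKO group.

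Among the other receptors and ligands, 5 of 6 were in the table, and *Dlk2*, a non-canonical ligand, was the only one tested (0.20, SE 0.33, edgeR adjusted p = 0.881). *Dner*, named like *Notch4* and *Dll3* after its values were seen, had 1, 1 and 0 counts in wild type and 0, 8 and 3 in *Piezo1* cKO. *Notch4* and *Dll3* had at most 1 count in any library.

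The 18 tested genes of receptor processing and trafficking had 15 values above and 3 below 0 (50.2% and 49.8% of all genes tested), and none was at an unadjusted p under 0.05. Of the 18, 3 reached the filter's minimum in all *Piezo1* cKO libraries but not in all wild type libraries, and 0 the other way round, so the filter favoured values above 0 and the tally is a description only. *Rfng*, the Radical fringe glycosyltransferase, had a log2 fold change of 0.49 (SE 0.26, edgeR adjusted p = 0.434). *Neurl1a*, a ubiquitin ligase acting on ligands, was at 0.65 (SE 0.34) and was 1 of these 3, and *Dtx2*, of the Deltex family, at 0.44 (SE 0.29). At the other end, the ubiquitin ligases *Itch* and *Fbxw7*, both known to promote turnover of Notch, were at -0.14 each (SE 0.21 and 0.31). The value of *Itch* was 0.16 without wild type library 2.

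Of the 18 tested genes of the nuclear complex and its corepressors, 10 were above and 8 below 0, and none was at an unadjusted p under 0.05. *Tle1*, a Groucho corepressor, had the smallest p among those above 0 (0.28, SE 0.24, edgeR adjusted p = 0.703). *Snw1*, which encodes SKIP, a protein that also acts in splicing, was at -0.50 (SE 0.34, adjusted p = 0.641), and *Hdac1* at -0.14 (SE 0.14, adjusted p = 0.76). Without *Piezo1* cKO library 1, *Snw1* was at -0.99 and was called (edgeR adjusted p = 9.6e-04).

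The other HES and HEY genes and general targets held the 4 genes of the wider list with an unadjusted p under 0.05. *Bhlhe41*, a HES-related repressor, had 8, 9 and 18 counts in wild type and 21, 17 and 21 in *Piezo1* cKO. Its libraries did not overlap in CPM, and its log2 fold change was 0.83 (SE 0.34, edgeR adjusted p = 0.273). It too passed the filter through the *Piezo1* cKO group, with 3 libraries at the minimum against 1 of wild type. *Myc*, a growth-promoting transcription factor, had 192, 334 and 253 counts against 194, 159 and 176, lower in every *Piezo1* cKO library after normalisation (-0.46, SE 0.14, edgeR adjusted p = 0.0917, and 0.0414 without *Piezo1* cKO library 1). *Nfkb2*, an NF-κB subunit, and *Ccnd1*, cyclin D1, were at -0.51 (SE 0.19) and -0.32 (SE 0.14). *Hes6*, an antagonist of HES1 that is known to be expressed in differentiating cells, was the most abundant gene of this group, at 950, 693 and 938 counts against 1133, 829 and 885 (0.19, SE 0.16, edgeR adjusted p = 0.689).

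**Figure D3:**
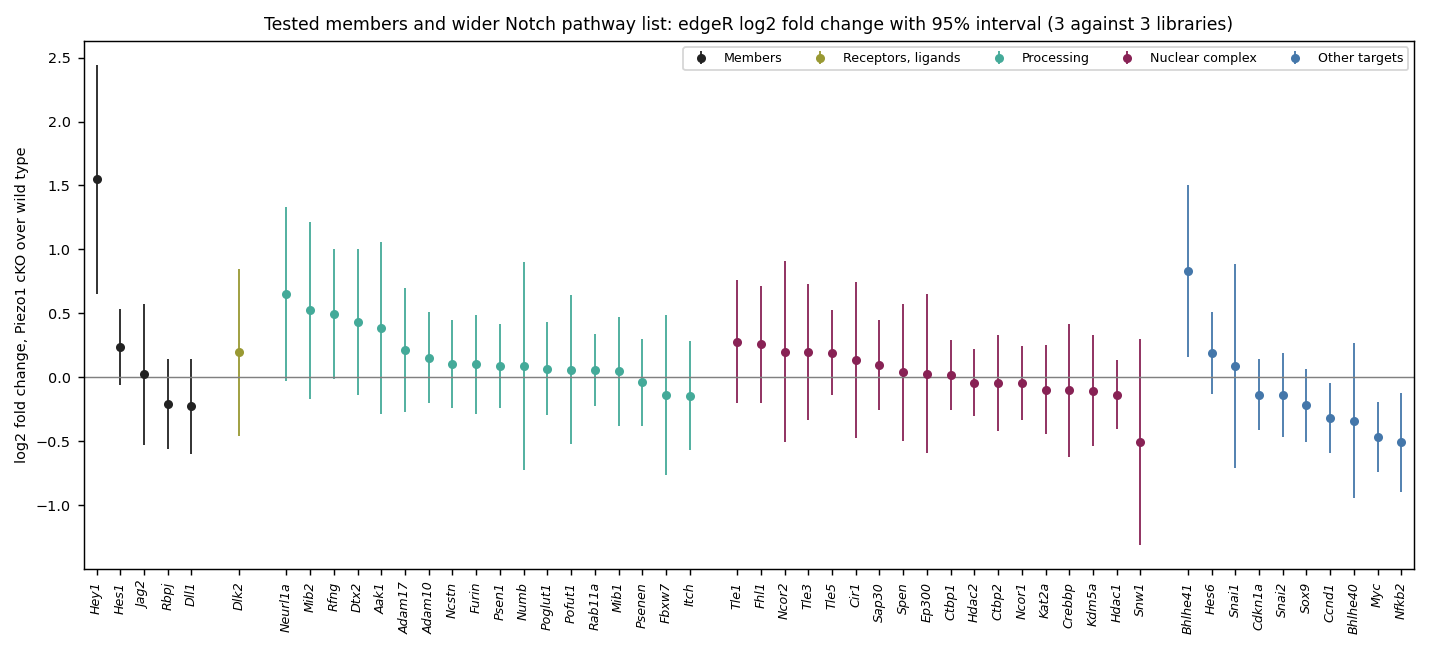
EdgeR log2 fold changes, *Piezo1* cKO over wild type (y axis), of the 5 tested members and the 47 tested genes of the wider list (x axis), grouped by role and sorted within each group. Points are estimates from 3 libraries against 3 and bars are 95% intervals not adjusted for the number of genes. *Hey1* lies highest, at 1.55, and the interval of every processing gene spans 0.

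MuSC genes tied to Notch, quiescence and self-renewal had log2 fold changes on both sides of 0. Of 16 tested, 9 were above and 7 below 0, 5 were at an unadjusted edgeR p under 0.05 (11.9% of all genes tested) and none was called by edgeR (0.784%). *Cd34*, a surface sialomucin of quiescent MuSCs that is also a fibro-adipogenic marker, had 53, 172 and 91 counts in wild type and 39, 23 and 35 in *Piezo1* cKO. It was lower in every *Piezo1* cKO library (-1.59, SE 0.40, edgeR adjusted p = 0.181) and was called by DESeq2 (adjusted p = 8.2e-04). In edgeR it was called without wild type library 1 (adjusted p = 9.0e-06) and without wild type library 2 (adjusted p = 2.3e-04, log2 fold change -1.13). *Sdc4*, a heparan sulphate proteoglycan of MuSCs, was at -0.53 (SE 0.15, edgeR adjusted p = 0.0609) and was called without wild type library 1 (0.0369) or 3 (0.0273) and without *Piezo1* cKO library 1 (0.0026). With all 6 libraries it was called in edgeR with DESeq2 size factors (adjusted p = 0.0429), without the filter (0.0327) and with a stricter filter (0.0334), but not with total counts only (0.127), with the replicate block (0.207) or in DESeq2 (0.251).

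In the same list, *Sdc3*, a syndecan known to act in Notch processing in MuSCs, was at 0.66 (SE 0.23, edgeR adjusted p = 0.167), and *Megf10*, a receptor of MuSC proliferation, at 0.50 (SE 0.22, adjusted p = 0.396, and 0.0076 without wild type library 3). *Col5a1*, a collagen V chain whose gene is a known Notch target in quiescent MuSCs, was at 0.69 (SE 0.34, edgeR adjusted p = 0.396), and it passed the filter through the *Piezo1* cKO group, with 3 libraries at the minimum against 1 of wild type. *Col5a3*, the gene of another chain and named here after its values were seen, had 4, 1 and 7 counts against 8, 15 and 10 and did not pass the filter. The other collagen genes of the list are also named after their values were seen. *Col5a2* was at 0.03 (SE 0.13, edgeR adjusted p = 0.958). *Col6a1* had 3, 10 and 4 counts against 4, 5 and 1, and *Col6a2* had 2, 8 and 3 against 8, 0 and 2. Neither *Col6a1* nor *Col6a2* passed the filter.

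Genes of myogenic differentiation, which Notch is known to restrain, had log2 fold changes above 0 with 1 exception among those tested. Of 17 tested, 7 were at an unadjusted edgeR p under 0.05, all of them higher (11.9% of all genes tested in either direction), 10 were higher without overlap between groups (8.2% of all genes tested), and none was called by edgeR. Of the 17, 8 reached the filter's minimum in all *Piezo1* cKO libraries but not in all wild type libraries, among them 5 of the 7 and 8 of the 10, so for these genes the filter selected on the difference and the counts are a description only. *Acta1*, skeletal muscle actin, was at 66.2, 63.6 and 94.5 CPM in wild type and at 169, 466 and 272 CPM in *Piezo1* cKO (2.01, SE 0.49, edgeR adjusted p = 0.241, DESeq2 adjusted p = 0.0049). In edgeR it was called without *Piezo1* cKO library 1 (adjusted p = 2.6e-15) and without *Piezo1* cKO library 2 (adjusted p = 0.0011). *Myog*, a transcription factor of terminal differentiation that was named here after its values were seen, had 40, 3 and 45 counts against 63, 203 and 92. In *Acta1*, *Myog*, *Hey1* and *Heyl*, *Piezo1* cKO library 2 was the highest of the 6, as it also was in *Notch2*, *Notch3* and *Jag1*. The wild type libraries differed in order, with *Myog* lowest in library 2 and *Hey1* lowest in library 3. *Myod1*, the determination factor, was at -0.15 (SE 0.15, edgeR adjusted p = 0.743).

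The 12 cell cycle genes were all below 0, beside 49.8% of all genes tested. At an unadjusted edgeR p under 0.05 were 5 of them, all lower (5.78% of all genes tested), and none was called (0.784%). *Mcm5*, of the replicative helicase, was at -0.44 (SE 0.14, edgeR adjusted p = 0.137, and 0.0134 without *Piezo1* cKO library 1), and *Cdk1*, the mitotic kinase, at -0.40 (SE 0.14, adjusted p = 0.159). Their summed level was lowest in *Piezo1* cKO library 2, at 1941 CPM. *Piezo1* cKO library 1, at 2540 CPM, lay among the wild type libraries, which ranged from 2475 to 2855 CPM.

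Among the marker genes of other cell types, *Dcn* and *Ncam1* were called by edgeR. *Dcn*, decorin, had 18, 23 and 37 counts in wild type and 8, 5 and 3 in *Piezo1* cKO and fell by 2.17 on the log2 scale (SE 0.38, edgeR adjusted p = 3.9e-04). It passed the filter through the wild type group alone, with 3 libraries at the minimum against 0. The other genes of its list did not share 1 direction. *Cd34*, given above, was lower in every *Piezo1* cKO library (log2 fold change -1.59, edgeR adjusted p = 0.181, DESeq2 adjusted p = 8.2e-04). *Pdgfra* had 4, 3 and 8 counts against 1, 1 and 3, and *Lum* 4, 1 and 0 against 1, 0 and 1. *Ly6a*, which encodes SCA1 and like *Pdgfra* and *Lum* is named here after its values were seen, had 2, 2 and 3 counts against 5, 8 and 9, and *Col3a1*, a collagen III chain, was at 0.41 (SE 0.16, edgeR adjusted p = 0.265). The 6 fibro-adipogenic genes in the table, led by *Col3a1*, summed to 273, 384 and 437 CPM in wild type and 324, 334 and 313 CPM in *Piezo1* cKO. The endothelial genes summed to 18.7, 8.92 and 8.27 CPM against 13.9, 9.25 and 21.2 CPM, with *Tek* the most abundant, and the haematopoietic genes, led by *Cd68*, to at most 27.9 CPM. The Schwann cell markers were led by *Ncam1*, which myoblasts also express and which rose by 0.62 on the log2 scale (SE 0.14, edgeR adjusted p = 0.011). *Ncam1* was not called without wild type library 1 (edgeR adjusted p = 0.0529) or without *Piezo1* cKO library 2 (0.164) or 3 (0.321). The part of other cells in the values of the Notch genes was not tested.

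**Figure D4:**
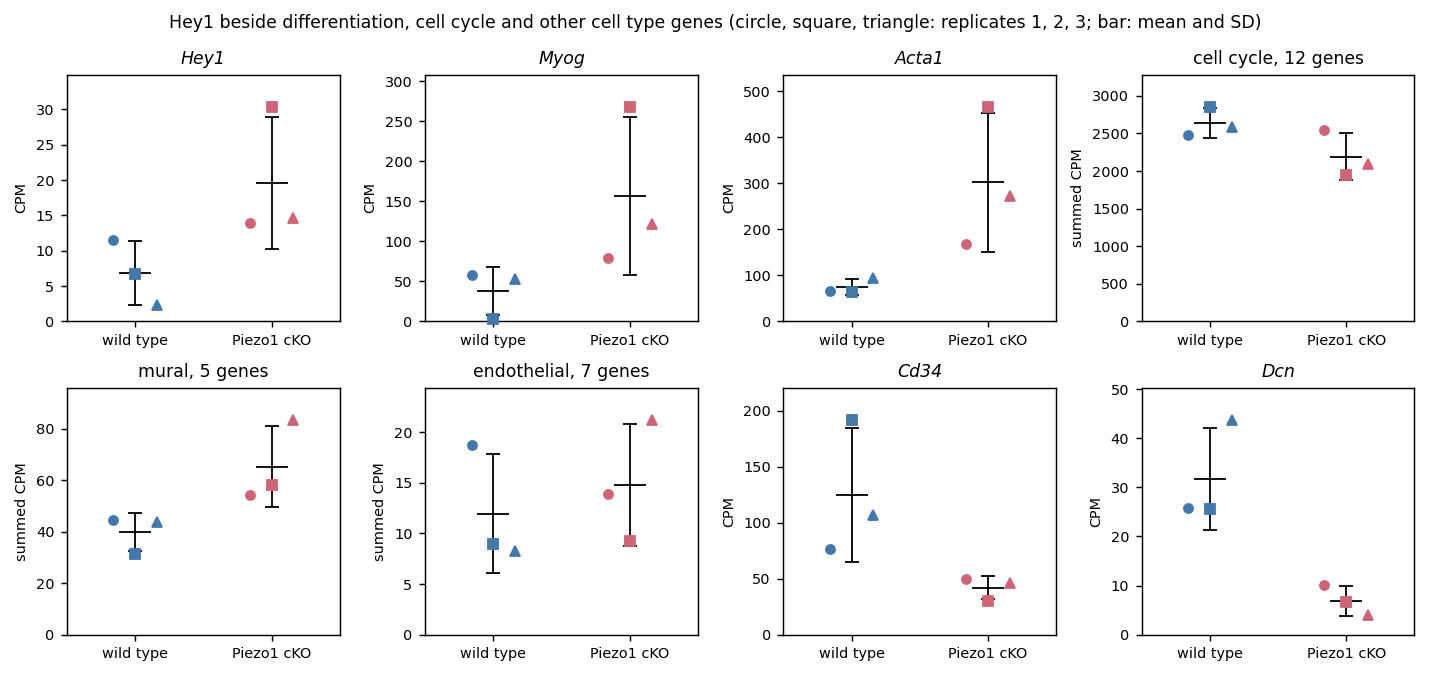
CPM of *Hey1*, *Myog*, *Acta1*, *Cd34* and *Dcn* and the summed CPM of the cell cycle, mural and endothelial lists in each library (y axes, linear, from 0). Symbols are replicates 1, 2 and 3 of wild type (blue) and *Piezo1* cKO (red), and bars show the mean and SD (n = 3). *Piezo1* cKO library 2 is the highest for *Hey1*, *Myog* and *Acta1* and the lowest for the cell cycle sum.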

How the data were processed

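RNA-seq was performed on MuSCs cultured until day 3, in 3 wild type and 3 *Piezo1* cKO libraries, grouped by their titles. The deposited values are UMI counts per gene, not normalised. Per the labels and the study's methods, the authors mapped reads to GRCm38 with STAR 2.7.9a, assigned them with featureCounts 2.0.1 and counted them with UMI-tools 1.1.1. Settings for strand and for reads with several matches are not given in the sources used here.

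Libraries held 726378 to 931168 counts, and a gene at 3 counts stood at 3.22 to 4.13 when scaled to a total of 1e6. Pairs of libraries within a group differed by more than sampling noise (chi-square per degree of freedom 1.64 to 2.61).

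Counts were tested in R 4.3.3 with edgeR 4.0.16 (filterByExpr with a minimum count of 10, TMM, robust quasi-likelihood fit, Benjamini-Hochberg adjustment over 8551 genes, called at an adjusted p under 0.05), with no block. CPM used TMM effective library sizes. Alternatives were DESeq2 1.42.0 with default settings, edgeR scaled by DESeq2 size factors or by library totals alone, all genes with a count, a stricter filter (10 counts in each of the 6 libraries), a block for the replicate number, an adjusted p under 0.1 and the omission of each library in turn. Exact permutation tests were two-sided. In simulated counts with about 200 genes changed by 3-fold, edgeR recovered 188 of 192 with 11 false calls among 8374 genes, and with 2-fold changes it recovered 152 of 193 with 5 false calls among 8359 genes. With 1.5-fold changes it recovered 51 of 197 with 4 false calls among 8377 genes. Each simulated gene had only the spread typical of its abundance, without the extra spread of single genes in the real libraries. The recovery can therefore be lower in the real data, where *Acta1*, at a log2 fold change of 2.01, was not called (edgeR adjusted p = 0.241).

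The 10 members and the gene lists were chosen with earlier results of these data known. Genes named from a list were those called by edgeR or DESeq2 and then those with the smallest unadjusted p, at most 3 in each direction. Also named were all members, the 3 genes most alike to the 2 tested members with the largest changes in the main edgeR fit, *Piezo1*, and the most abundant and defining genes of each marker list. Any other gene is marked. Coordinates and transcript lengths came from GENCODE M21 (GRCm38), and promoter windows from RefSeq (GRCm38.p6).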

Additional observations from a re-analysis of the deposited data

How the results depend on the processing

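No member was called, and at an adjusted p under 0.1 *Hey1* was the 1 member called higher, and *Myc* the 1 gene of the wider list called lower. Over the fits that left out a library, 0 to 1 member was called higher and 0 lower, and in the wider list 0 higher and 0 to 2 lower, the 2 (*Myc* and *Snw1*) without *Piezo1* cKO library 1. No member was called in edgeR with DESeq2 size factors, total counts only or no filter. The same held for the 4 members tested under the stricter filter and the 3 with an adjusted p in DESeq2, and *Hey1* was among neither. Over all genes, the 40 higher and 27 lower calls became 12 and 15 in DESeq2, 82 and 47 with no filter, 76 and 48 at an adjusted p under 0.1, and 4 to 101 higher and 2 to 73 lower with a library left out. Both minima came without *Piezo1* cKO library 2 and both maxima without *Piezo1* cKO library 1. Total counts only gave 49 higher and 18 lower and moved the median log2 fold change of all genes from 0.00 to 0.08. The paper, also with DESeq2, counts 15 genes as up-regulated and 12 as down-regulated. DESeq2 here gave 12 higher and 15 lower, the same totals in reverse order. The paper used another DESeq2 version, and whether the same genes were called was not compared. The paper's legend for those counts does not name the reference group, and the cause of the difference in totals was not tested. For muscle differentiation the paper reports a rise in *Piezo1* cKO, the direction that most tested differentiation genes had here. That report rests on these same libraries, so the shared direction is not independent evidence. Of the 17 tested differentiation genes, 8 also passed the filter through the *Piezo1* cKO group.

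Same-numbered libraries correlated at -0.14, -0.20 and 0.01 in their deviations from the group means, so no pairing was detected and the numbers were not treated as pairs. Under a replicate block 26 genes were higher and 20 lower, no member was called, and *Hey1* had an edgeR adjusted p of 0.172. *Acta1* was called under the block (0.0042), whereas *Mycl* (0.0963) and *Ncam1* (0.0556) were not. The log2 fold change of *Dll1*, *Hes1*, *Hey1* and *Rbpj* kept its direction under every alternative that gave them one. That of *Jag2* ranged from -0.25 to 0.31 with a library left out, and that of *Itch* from -0.30 to 0.16, *Psenen* from -0.21 to 0.15, *Kat2a* from -0.27 to 0.089 and *Snai1* from -0.028 to 0.18. *Psenen* was at 0.040 with total counts only against -0.04. *Cd34* was called with no filter (edgeR adjusted p = 1.0e-11). At this depth *Notch1*, *Notch2*, *Notch3*, *Jag1* and *Heyl* had too few counts for the test, and the cause of the changes between settings was not tested.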
